A study of Mus musculus with 8 samples.

Results

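The Slit-Robo and semaphorin-plexin systems were followed through 10 genes, chosen by their symbols: the ligand genes Slit2, Slit3, Sema3a and Sema3c, and the receptor genes Robo1, Robo2, Plxna1, Plxnb1, Nrp1 and Nrp2. The count table lists them in capitals, as SLIT2, SLIT3, SEMA3A, SEMA3C, ROBO1, ROBO2, PLXNA1, PLXNB1, NRP1 and NRP2. All 10 were present among its 13937 genes, and all 10 were among the 13509 genes with enough counts to be tested. The libraries were made from the bulk RNA of cultured brain astrocytes of C57BL/6 pups at postnatal day 1, and there were 8 in 4 groups of 2. WT control and RGC-32 KO control astrocytes were untreated, and WT TGF-β and RGC-32 KO TGF-β astrocytes received TGF-β at 10 ng/ml for 24 h. In all 4 groups the cells had been expanded in serum, shaken to detach neurons and oligodendrocyte precursors, and deprived of serum overnight. The RGC-32 KO groups came from knockout mice of RGC-32, the product of Rgcc, and how the allele was made is not given in the sources used here. The replicates are labelled as biological, but neither the number of pups behind a library nor any pooling is given in the sources used here, so the p-values measure the spread between these libraries.

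Slits are large secreted proteins that bind Robo receptors and repel growing axons and migrating cells, and they were first known from the midline of the nervous system. Class 3 semaphorins such as Sema3a and Sema3c are also secreted. They are usually held by a neuropilin, Nrp1 or Nrp2, while a class A plexin such as Plxna1 carries the signal into the cell and towards the actin cytoskeleton. Plxnb1 is a class B plexin that binds the transmembrane semaphorin Sema4d. Astrocytes make several of these guidance cues, and TGF-β is a cytokine that changes the state of astrocytes and their output of extracellular matrix.

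Each library held between 14920561 and 18956038 counts. Rgcc, the deleted gene, had 80 and 94 counts in the WT controls and 215 and 362 in the treated WT libraries. The counts of the 4 RGC-32 KO libraries lay between 26 and 64, below every WT library but not at 0, and counts per gene do not show which exons they come from. The astrocyte markers Gfap, Aqp4 and Slc1a3 were high in all libraries, with Gfap between 1196 and 2650 CPM, counts scaled to the TMM-normalized library size. Of 9 neuronal markers, 5 were in the count table, with Map2 at 183 to 276 CPM and Stmn2 at 75.2 to 107 CPM over the 8 libraries, and Rbfox3, Snap25, Dcx and Slc17a7 were not in it. Of 7 endothelial markers, 4 were in it, with Cdh5 at 26.5 to 76.9 CPM and Pecam1 at 1.49 CPM or less, and Cldn5, Tie1 and Emcn were not. To pass the threshold, a gene needed a log2 fold change of 0.6 or more in size together with an adjusted p under 0.05 in edgeR's quasi-likelihood test, where adjustment ran over all 13509 genes.

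The Slit genes share a further feature that is not part of their own messenger RNA. The hairpins of miR-218 lie on the same strand inside introns of both genes, Mir218-1 in Slit2 (chr5:48223942-48224051, GRCm38.p6) and Mir218-2 in Slit3 (chr11:35616816-35616925), and neither shares a base with an exon of its host. Both hairpins give the same mature 5p sequence in RefSeq. It is shown here with its seed, bases 2 to 8, in capitals, because Robo1 and Robo2, receptors of the hosts' products, hold matches to it. The 22-base stretches below it come from the 3′ UTR of the GENCODE transcript with the longest coding sequence, with the 7 bases that pair with the seed in capitals.
miR-218-5p: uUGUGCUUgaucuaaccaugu
Robo1, position 986 of 1733: gttttaaAAGCACAatcactaa
Robo2, position 461 of 3520: tggtgatAAGCACAaatctcta
Robo2, position 2787 of 3520: cagacccAAGCACAgcttcttt

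Slit2 and Plxnb1 each held 1 such match as well, and Slit3, Sema3a, Sema3c, Plxna1, Nrp1 and Nrp2 held none. A match to these letters was found in the 3′ UTR of 12.4% of 21020 genes. That share was not matched for the length of the 3′ UTR, which ran from 365 bases in Slit3 to 3520 in Robo2 over the 10 genes. It is a description of the sequence and not a site shown to be used, and mature miRNAs were not measured in these libraries.

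In WT astrocytes, TGF-β was followed by higher expression of both Slit genes, of the Slit receptor gene Robo1 and of the semaphorin receptor gene Plxna1, and by lower expression of the ligand gene Sema3a. Thus 4 of the 10 genes rose and 1 fell past the threshold. Over all genes tested, 7.72% rose and 5.65% fell. Plxnb1, Nrp1, Nrp2, Robo2 and Sema3c were not past the threshold. With upper quartile normalization, the split over all genes changed from 1043 higher and 763 lower to 857 higher and 1055 lower, while the same 5 members were past the threshold. On the Cufflinks scale, log2(FPKM + 1), Slit2, Plxna1 and Sema3a dropped below the fold limit, at 0.55, 0.50 and -0.59, while with a pseudocount of 0.1 Sema3a was past it. The median log2 fold change was 0.04 over the 10 genes and -0.0048 over all genes.

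Slit2 (chr5:47983138-48307733, plus strand, GRCm38) encodes a Slit ligand that is cut into diffusible and cell-bound parts. It stood at 214 and 242 CPM in the WT controls and 345 and 397 in the treated WT libraries. The RGC-32 KO controls had 168 and 173 CPM, and the treated RGC-32 KO libraries 246 and 213. Both TGF-β libraries lay above both controls in each genotype, and the RGC-32 KO TGF-β libraries stood at about the level of the WT controls. The log2 fold change with TGF-β was 0.70 (SE 0.10, edgeR adjusted p = 0.00185) in WT, a 1.62-fold rise. In RGC-32 KO it was 0.43 (SE 0.10, edgeR adjusted p = 0.0162), which met the p limit and not the fold limit. Leaving out the second WT TGF-β library lowered the WT value to 0.58, under the fold limit, with an adjusted p of 0.0141. In RGC-32 KO the edgeR adjusted p was 0.077, 0.0645 and 0.117 without the first control, the second control and the first TGF-β library. Slit2 and Plxna1 were picked for PCR by the study from these same libraries, and Slit3 was on its list of genes with more expression in stimulated WT cells, so their direction here is not independent evidence. In that PCR the study found a significant rise of Slit2 and Plxna1 with TGF-β in WT and not in RGC-32 KO astrocytes.

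The 250 bases upstream of a RefSeq start were read for Slit2 and Robo1, which rose together in WT, and for Sema3a, which fell. CAGAC, the short core bound by the SMAD proteins that act below the TGF-β receptors, was searched on both strands, and it is in capitals where it or its reverse complement GTCTG occurs. The Slit2 window is chr5:47982905-47983154, the Robo1 window chr16:72662899-72663148 and the Sema3a window chr5:13396534-13396783, all on the plus strand of GRCm38.p6. The last 2 lie inside the longer GENCODE gene, ahead of a later start.
Slit2: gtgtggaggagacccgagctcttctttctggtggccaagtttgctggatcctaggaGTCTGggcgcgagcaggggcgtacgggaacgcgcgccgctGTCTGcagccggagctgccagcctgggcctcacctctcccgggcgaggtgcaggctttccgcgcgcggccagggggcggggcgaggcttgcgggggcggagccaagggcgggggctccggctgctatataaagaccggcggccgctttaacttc
Robo1: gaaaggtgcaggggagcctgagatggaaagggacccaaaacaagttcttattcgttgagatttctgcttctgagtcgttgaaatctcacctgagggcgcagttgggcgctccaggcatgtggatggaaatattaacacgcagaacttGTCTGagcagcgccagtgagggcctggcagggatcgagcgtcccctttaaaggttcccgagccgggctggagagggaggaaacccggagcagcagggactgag
Sema3a: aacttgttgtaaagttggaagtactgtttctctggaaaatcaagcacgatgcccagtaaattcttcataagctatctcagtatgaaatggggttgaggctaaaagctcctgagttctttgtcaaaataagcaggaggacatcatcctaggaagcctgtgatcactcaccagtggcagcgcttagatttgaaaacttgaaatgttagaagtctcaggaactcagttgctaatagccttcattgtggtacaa

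The Slit2 window held 2 matches, the Robo1 window 1 and the Sema3a window 0. Among the windows not shown, those of Slit3, Plxnb1 and the second Robo2 start held 1 each. The windows of Sema3c, Nrp1, Nrp2 and the other Robo2 starts held 0. Plxnb1 and Robo2, which held matches, were not past the threshold. Of 32851 mouse promoter windows of the same length, 42.2% held at least 1, so the match is common. The full palindrome GTCTAGAC, present in 0.167% of windows, and the AP-1 motif TGACTCA, searched on both strands and present in 4.46%, were in none of the 11 windows of the 9 members that RefSeq's table lists. Plxna1 has no entry there.

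Slit3 (chr11:35121224-35708507, plus strand), a second Slit ligand, had the largest log2 fold change of the 10 genes in both genotypes. It stood at 45.1 and 79.1 CPM in the WT controls and 179 and 185 in the treated WT libraries. Among RGC-32 KO libraries, the controls had 41.2 and 53.4 CPM and the treated ones 119 and 113. The treated libraries lay far above the controls in each genotype, and the WT controls differed from each other more than the treated libraries did. The log2 fold change was 1.55 (SE 0.23, edgeR adjusted p = 0.00208), or 2.93-fold, in WT and 1.29 (SE 0.23, edgeR adjusted p = 0.00567), or 2.45-fold, in RGC-32 KO. Without the first or the second WT control library the WT value was 1.20 or 2.00, past the threshold in both cases.

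Robo1 (chr16:72308306-73046095, plus strand), a receptor for both Slits, had the smallest p of the 10 genes in both genotypes. It stood at 66.7 and 68.1 CPM in the WT controls and 139 and 136 in the treated WT libraries. The RGC-32 KO controls had 60.8 and 61.3 CPM, and the treated RGC-32 KO libraries 109 and 117. No control library of either genotype came near a treated one. The rise was 2.04-fold in WT (log2 fold change 1.03, SE 0.06, edgeR adjusted p = 7.26e-05) and 1.86-fold in RGC-32 KO (0.89, SE 0.06, edgeR adjusted p = 0.00013). Robo1 and Slit3 were past the threshold in both genotypes under each of the 21 alternatives run.

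Robo2 (chr16:73891839-74411825, minus strand) is the sister receptor of Robo1. It stood at 55.5 and 62.7 CPM in the WT controls and 50.6 and 39.3 in the treated WT libraries. Among RGC-32 KO libraries, the controls had 38.2 and 45.8 CPM and the treated ones 43.8 and 36.3. The WT libraries did not overlap between control and TGF-β, with TGF-β lower, while the RGC-32 KO libraries did. The log2 fold change was -0.39 (SE 0.15, edgeR adjusted p = 0.0731) in WT and -0.07 (SE 0.15, edgeR adjusted p = 0.759) in RGC-32 KO, so neither was past the threshold.

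Sema3a (chr5:13125414-13602565, plus strand), a repellent semaphorin that binds Nrp1, was the member that fell. It stood at 19.7 and 26.4 CPM in the WT controls and 11.8 and 13.9 in the treated WT libraries. The RGC-32 KO controls had 17.3 and 15.8 CPM, and the treated RGC-32 KO libraries 11.99 and 10.6. Both treated libraries lay below both controls in each genotype. The log2 fold change was -0.85 (SE 0.16, edgeR adjusted p = 0.00561) in WT. In RGC-32 KO it was -0.55 (SE 0.16, edgeR adjusted p = 0.0413), within the fold limit, and the adjusted p ran from 0.0921 to 0.18 when any 1 of the 4 RGC-32 KO libraries was left out. The study listed Sema3a from these libraries among genes lowered in WT astrocytes, so this is not independent evidence of its direction either. Sema3c (chr5:17574281-17730268, plus strand), its relative, which binds both neuropilins, stood at 749.5 and 608 CPM in the WT controls and 592 and 622 in the treated WT libraries. Among RGC-32 KO libraries, the controls had 584 and 505 CPM and the treated ones 547 and 554. Treated and control libraries overlapped in each genotype, with log2 fold changes of -0.16 (95% interval -0.42 to 0.09) in WT and 0.016 (-0.24 to 0.27) in RGC-32 KO.

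Plxna1 (chr6:89316314-89362620, minus strand), a plexin that signals for class 3 semaphorins bound to neuropilin, stood at 196 and 190.2 CPM in the WT controls and 304 and 333 in the treated WT libraries. The RGC-32 KO controls had 155 and 164 CPM, and the treated RGC-32 KO libraries 209 and 213. Treated libraries lay above controls in both genotypes. The log2 fold change was 0.72 (SE 0.06, edgeR adjusted p = 0.000307) in WT, a 1.65-fold rise, and 0.40 (SE 0.06, edgeR adjusted p = 0.00374) in RGC-32 KO, which met the p limit and not the fold limit. The libraries were not stranded, and 970 bases, 10.71% of the exonic bases of Plxna1, are shared with the antisense gene Gm26811, so reads of the pair cannot be told apart there. Plxnb1 (chr9:109095389-109119917, plus strand), which shares 257 bases with the antisense gene Gm7628, stood at 262 and 262 CPM in the WT controls and 283 and 278 in the treated WT libraries. Among RGC-32 KO libraries, the controls had 272 and 310.2 CPM and the treated ones 257 and 269. Its treated libraries lay above the controls in WT and below them in RGC-32 KO, with log2 fold changes of 0.10 (SE 0.07, edgeR adjusted p = 0.329) and -0.15 (SE 0.07, edgeR adjusted p = 0.169).

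The neuropilins, which bind the semaphorin before the plexin signals, showed no change past the threshold. Nrp1 (chr8:128358604-128503363, plus strand) stood at 175 and 153 CPM in the WT controls and 165 and 159 in the treated WT libraries. The RGC-32 KO controls had 146 and 150.1 CPM, and the treated RGC-32 KO libraries 178 and 164. Its WT libraries overlapped and its treated RGC-32 KO libraries lay above the controls, with log2 fold changes of -0.018 (SE 0.08) and 0.21 (SE 0.08, edgeR adjusted p = 0.0768). Nrp2 (chr1:62703285-62818695, plus strand), which also binds Sema3c, stood at 149.5 and 113 CPM in the WT controls and 124 and 116 in the treated WT libraries. Among RGC-32 KO libraries, the controls had 120.5 and 106 CPM and the treated ones 93.9 and 117. Treated and control libraries overlapped in both genotypes, with 95% intervals of -0.47 to 0.21 in WT and -0.44 to 0.24 in RGC-32 KO.

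**Figure D1:**
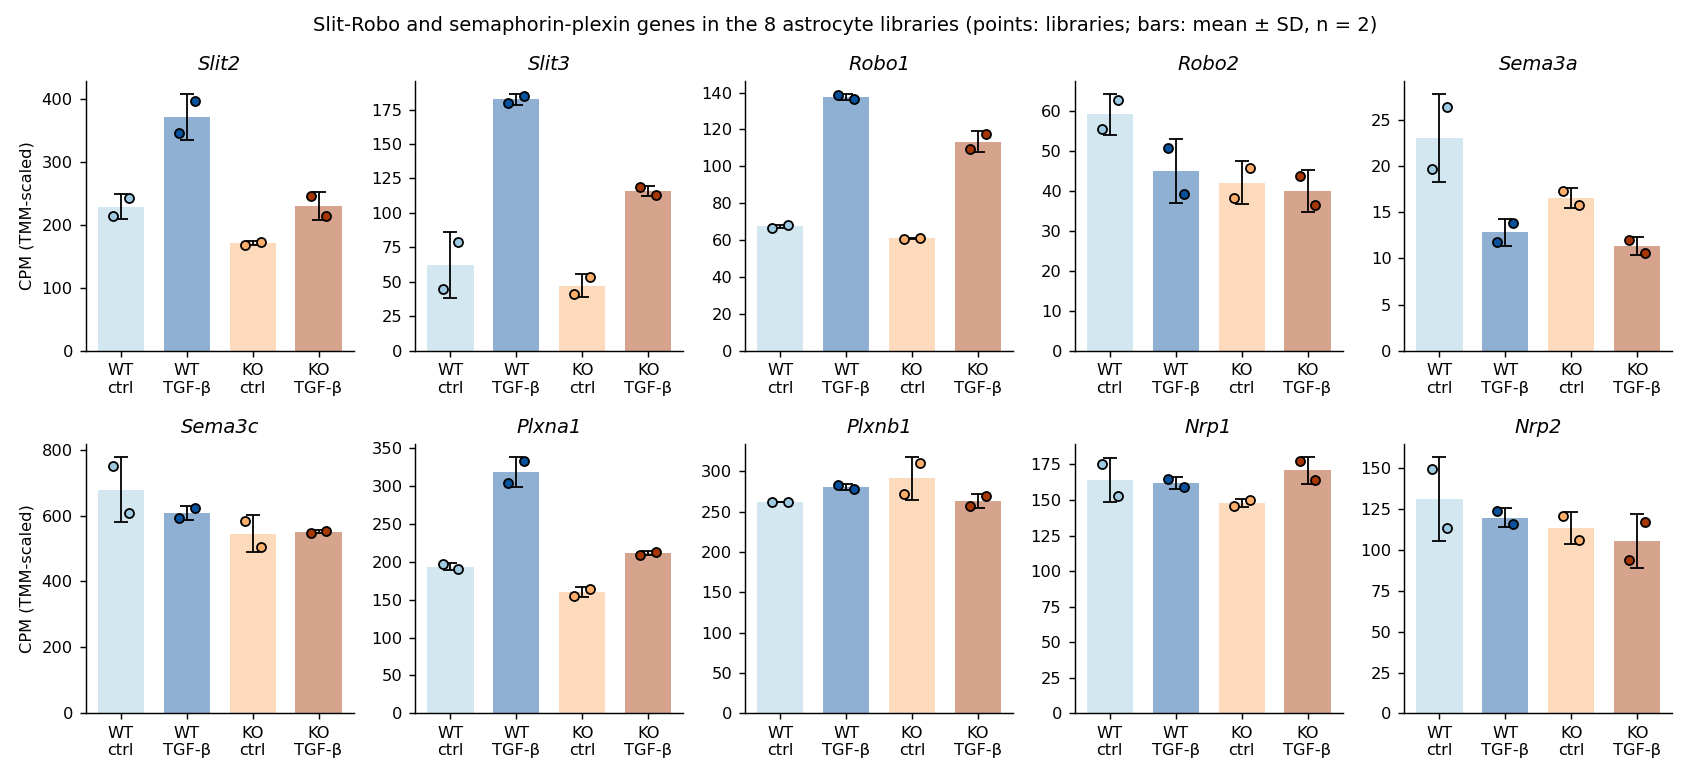
CPM (vertical axis, TMM-scaled, starting at 0) of the 10 genes in the 4 groups, with points for libraries and bars for the mean ± SD of n = 2. Slit2, Slit3, Robo1 and Plxna1 stand higher and Sema3a lower with TGF-β in both genotypes, while the control and TGF-β libraries of Sema3c and Nrp2 overlap in each genotype.

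In RGC-32 KO astrocytes, 2 of the 10 genes rose past the threshold with TGF-β, Slit3 and Robo1, and none fell. Over all genes tested, 6.61% rose and 4.93% fell, and upper quartile normalization turned 893 higher and 666 lower into 747 higher and 895 lower. Under the adjusted p limit alone, without the fold limit, Slit2, Slit3, Robo1 and Plxna1 were higher and Sema3a lower in each genotype, 5 of 10 genes against 32.9% of all genes in WT and 28.4% in RGC-32 KO. Treated and control libraries did not overlap for 5 genes higher and 2 lower in WT, where 35.4% of all genes were higher and 33.7% lower in this way. In RGC-32 KO the counts were also 5 and 2, against 34.3% and 32.9% of all genes.

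**Figure D2:**
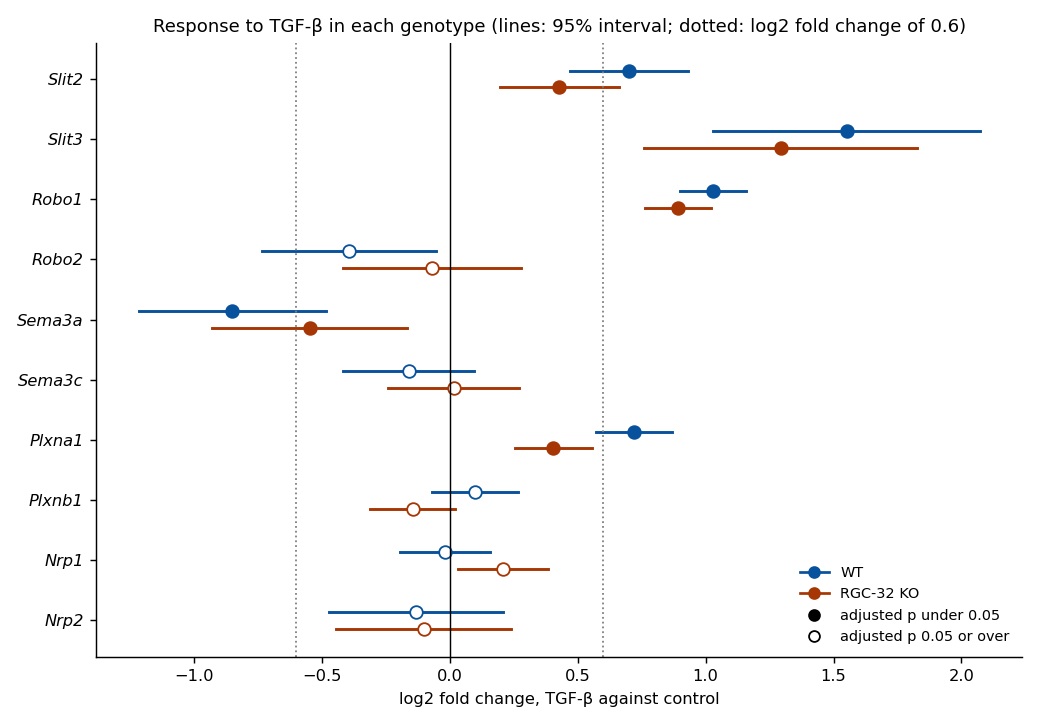
Log2 fold change with TGF-β (horizontal axis) of each gene in WT (blue) and RGC-32 KO (brown) with 95% intervals; filled points have an adjusted p under 0.05, and dotted lines mark a log2 fold change of 0.6. The same 5 genes are filled in both genotypes, and the RGC-32 KO point lies nearer to 0 than the WT point for each of them.

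Whether the response to TGF-β differed between genotypes was tested by the interaction, the response in RGC-32 KO minus that in WT on the log2 scale. No gene of the 10 and no gene of the 13509 was past the threshold in edgeR, and DESeq2 and limma-voom also gave 0. At an unadjusted p under 0.05, 2 of the 10 genes stood out, against 2.82% of all genes, and 1 to 4 did so when 1 library was left out. They were Plxna1, at -0.32 (95% interval -0.53 to -0.10, edgeR adjusted p = 1.00), and Plxnb1, at -0.24 (-0.48 to -0.0081, edgeR adjusted p = 1.00). For Slit2 the interaction was -0.27 (-0.60 to 0.05), for Slit3 -0.26 (-0.995 to 0.48), for Robo1 -0.14 (-0.32 to 0.05) and for Sema3a 0.30 (-0.23 to 0.83). Single libraries moved several of these by over 1.5 times. Sema3a was at 0.07 without the second WT control library and 0.50 without the first, Slit3 at -0.72 and 0.089 in the same order, Slit2 at -0.16 without the second treated WT library, and Plxnb1 at -0.15 without the second RGC-32 KO control library. Slit2, Plxna1 and Sema3a, past the threshold in WT and not in RGC-32 KO, were therefore not shown to respond differently in the 2 genotypes, and the intervals leave room for a difference.

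Without TGF-β, RGC-32 KO astrocytes had lower values than WT astrocytes for 9 of the 10 genes, all but Plxnb1, and none was past the threshold. Over all genes 0.0370% were past it, 4 higher and 1 lower, and 52.4% had a lower value. At an unadjusted p under 0.05, 6 of the 10 genes were lower in RGC-32 KO, against 3.80% of all genes, and DESeq2 called 0 of the 10. Without the second RGC-32 KO control library the count under that p was 3 of the 10, and it was 5 without any other 1 library. The log2 difference, RGC-32 KO minus WT, was -0.42 for Slit2 (SE 0.10), -0.28 for Plxna1 (SE 0.06), -0.48 for Sema3a (SE 0.15), -0.32 for Sema3c (SE 0.11), -0.49 for Robo2 (SE 0.15) and -0.14 for Robo1 (SE 0.06). Adjusted over all genes, these p-values ran from 0.444 to 0.7. Sema3a was at -0.25 without the second WT control library, and Sema3c at -0.16 without the first. The libraries did not overlap for 7 genes lower in RGC-32 KO and 1 higher, where 17.4% and 15.5% of all genes were lower and higher in this way.

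With TGF-β, 9 of the 10 genes again had lower values in RGC-32 KO, all but Nrp1, where 49.9% of all genes had a lower value. None was past the threshold, which 0.0444% of all genes were, and 4 of 10 were lower at an unadjusted p under 0.05, against 7.03% of all genes. Plxna1, at 304 and 333 CPM in WT and 209 and 213 in RGC-32 KO, had the smallest p, with a log2 difference of -0.59 (SE 0.06, edgeR adjusted p = 0.0451), or 0.664-fold. This met the p limit, as 0.0518% of all genes did, but not the fold limit. The adjusted p was over 0.05 when any 1 of the 8 libraries was left out, from 0.0501 to 0.494, and 0.0614 with RLE normalization or limma-voom. It was 0.036 with upper quartile normalization, and 8.61e-07 and 3.65e-07 with DESeq2 on all 8 libraries and on the 4 compared, where the difference was still under the fold limit at -0.59. Slit2, at 345 and 397 CPM against 246 and 213, had a log2 difference of -0.69 (SE 0.10, edgeR adjusted p = 0.0859). DESeq2 on all 8 libraries put Slit2 past the threshold, with an adjusted p of 5.06e-07, and DESeq2 on the 4 libraries compared did so for Slit2 and Slit3. The study had listed both from these libraries as higher in WT, so their direction is not independent evidence. Slit3 had a difference of -0.65 (SE 0.22, edgeR adjusted p = 0.32), and Robo1 of -0.28 (SE 0.05, edgeR adjusted p = 0.139). The RGC-32 KO libraries lay below both WT libraries for 6 genes, namely Slit2, Slit3, Sema3c, Robo1, Plxna1 and Plxnb1, and above them for none, where 22.4% and 23.9% of all genes did so. The comparisons of treatment and of genotype share libraries, so the values of a gene in them are not independent of each other.

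**Figure D3:**
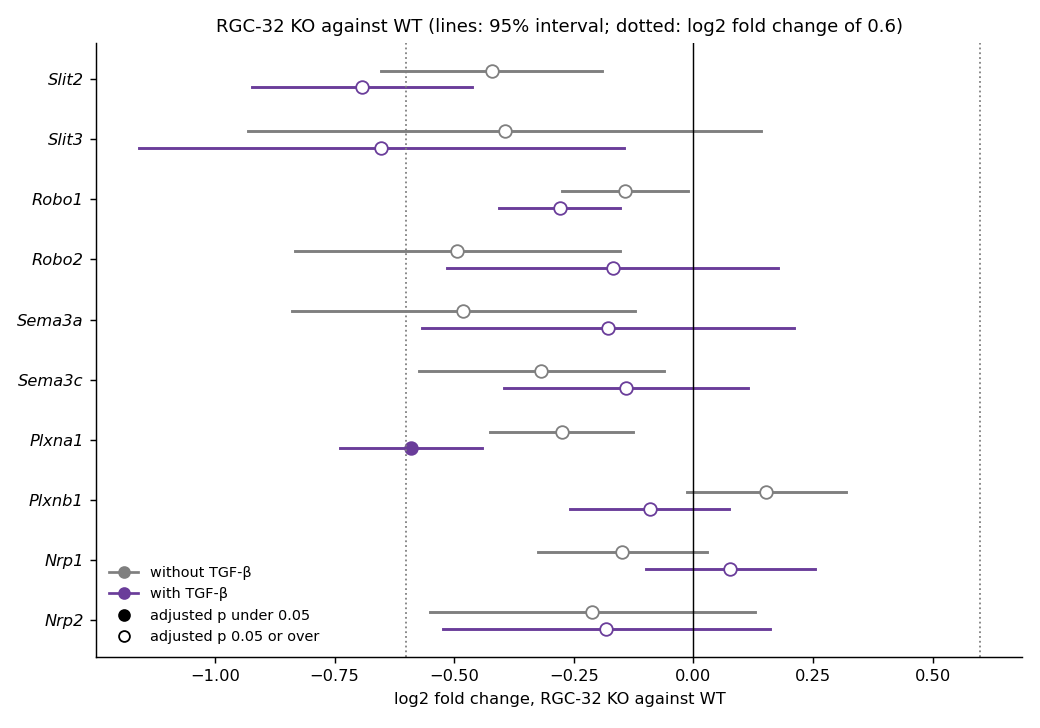
Log2 difference, RGC-32 KO against WT (horizontal axis), of each gene without TGF-β (grey) and with TGF-β (purple), with 95% intervals; the filled point has an adjusted p under 0.05, and dotted lines mark a log2 fold change of 0.6. Most points lie left of 0, and only Plxna1 with TGF-β, at -0.59, is filled.

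Levels were compared between genes on the authors' FPKM scale, which divides by transcript length. Sema3c was the highest of the 10 genes in all 4 groups, at 111 FPKM (SD 18.9, n = 2) in WT control and 83.8 (SD 1.55, n = 2) in RGC-32 KO TGF-β, and its libraries overlapped with those of no other member. Sema3a was the lowest, at 2.97 FPKM (SD 0.43) in WT control and 1.33 (SD 0.06) in RGC-32 KO TGF-β, so the class 3 ligands stood at both ends of the order. Robo2, at 5.34 FPKM in WT control, was next lowest in every group. Nrp1, at 24.1 FPKM, and Plxnb1, at 23.1, followed Sema3c in WT control and overlapped with each other. Nrp2 (18.1), Plxna1 (17.9) and Slit2 (17.8) came next, each overlapping with its neighbour in this order. Slit3 (8.85) and Robo1 (7.13) overlapped below them.

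The order changed with TGF-β in WT. Slit2, at 26.4 FPKM (SD 0.79), followed Sema3c, and Plxna1, at 25.6 (SD 0.17), came after it without overlap, and Slit3, at 23.1 (SD 1.33), overlapped with Plxnb1 at 22.6. In RGC-32 KO TGF-β, Nrp1 (22.7) and Plxnb1 (21.4) came after Sema3c and overlapped, and Plxna1 (17.8), Slit2 (17.0), Slit3 (15.5) and Nrp2 (13.2) each overlapped with the next.

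On the log2 CPM scale centred on each gene's mean, the genes closest to Slit2 over the 8 libraries were Mrvi1, with a root mean square difference of 0.07, Zfp618 (0.10) and Plxna1 (0.10). Those closest to Plxna1 were Tenm4 (0.07), Fat1 (0.07) and Ano3 (0.08). With only 4 groups of 2 libraries, many genes of like response lie near each other by this measure.

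Of 66 further genes of these systems, grouped by role, 63 were tested, and Robo4, Sema3g and Dcc were not. In WT, 10 rose and 2 fell past the threshold, where 7.72% of all genes rose and 5.65% fell. In RGC-32 KO 9 rose and 5 fell, where 6.61% of all genes rose and 4.93% fell, and the counts by role stand against the same shares. The median log2 fold change of the 63 genes was 0.14 with TGF-β in WT and 0.06 with TGF-β in RGC-32 KO, against -0.0048 and 0.0031 over all genes. None of the 63 was past the threshold between genotypes, and at an unadjusted p under 0.05 there were 2 without TGF-β and 9 with it, against 6.84% and 11.7% of all genes.

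Among 13 transmembrane and GPI-linked semaphorins, 2 rose and 1 fell in WT, and 2 rose and 3 fell in RGC-32 KO. Sema7a, the GPI-linked semaphorin that binds Plxnc1 and beta-1 integrins, had the largest change of the 63 genes, from 9.93 and 8.42 CPM to 50.4 and 65.8 in WT, a log2 fold change of 2.66 (SE 0.22, edgeR adjusted p = 0.000226). In RGC-32 KO it went from 8.61 and 5.39 CPM to 38.1 and 48.1, a log2 fold change of 2.63 (SE 0.23, edgeR adjusted p = 0.000349). Sema4f rose by 1.03 and 0.87 and Sema6d fell by 0.63 and 0.61 on the log2 scale in WT and RGC-32 KO. Sema4g, at -0.53 and -0.60, and Sema6b, at -0.58 and -0.73, passed the threshold in RGC-32 KO alone, where the study had listed both from these libraries, and their responses were not shown to differ, since no interaction passed.

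Among 7 other plexins, Plxna4, a partner of neuropilins in semaphorin signalling, rose by 1.36 in WT and 1.10 in RGC-32 KO on the log2 scale. Plxnb3 fell by 1.36 in WT (SE 0.31, edgeR adjusted p = 0.013) and had a value of -0.84 in RGC-32 KO (edgeR adjusted p = 0.0707), at no more than 6.1 CPM in any library, and the study had listed it from these libraries. Among 10 co-receptors and binding partners, 3 rose and none fell in WT, and 2 rose and 2 fell in RGC-32 KO. Flrt2, an adhesion protein that binds Unc5 receptors and is related to Flrt3, a Robo1 partner, rose by 2.09 in WT and 1.72 in RGC-32 KO. Gpc1, a glypican whose heparan sulphate chains bind Slits, rose by 1.10 and 1.16, with 18.94% of its exonic bases shared with the opposite-strand gene Ankmy1. Itgb1, the beta-1 integrin, rose by 0.64 in WT and had 0.59 in RGC-32 KO. Kdr, a receptor of vascular growth factors that also pairs with neuropilins, and Met, which pairs with class B plexins, fell by 0.67 and 0.68 in RGC-32 KO and had -0.50 and -0.57 in WT.

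Of 27 intracellular effectors, 4 rose in each genotype and none fell. They were Mical2, of the family of actin-oxidising enzymes below plexins (1.65 in WT and 1.36 in RGC-32 KO), Dpysl3 (1.12 and 1.02) and Crmp1 (1.01 and 0.70), of the collapsin response mediator proteins that relay Sema3a signals, and Farp1, an exchange factor that acts below plexins (0.88 and 0.70). Among the 4 other class 3 semaphorins tested none was past the threshold, and the gene with the largest WT value was Sema3d, at -0.44. Of the other Slits and Robos, Slit1 and Robo3 were tested and neither was past the threshold, with Slit1 at 1.05 and at no more than 1.16 CPM in any library.

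**Figure D4:**
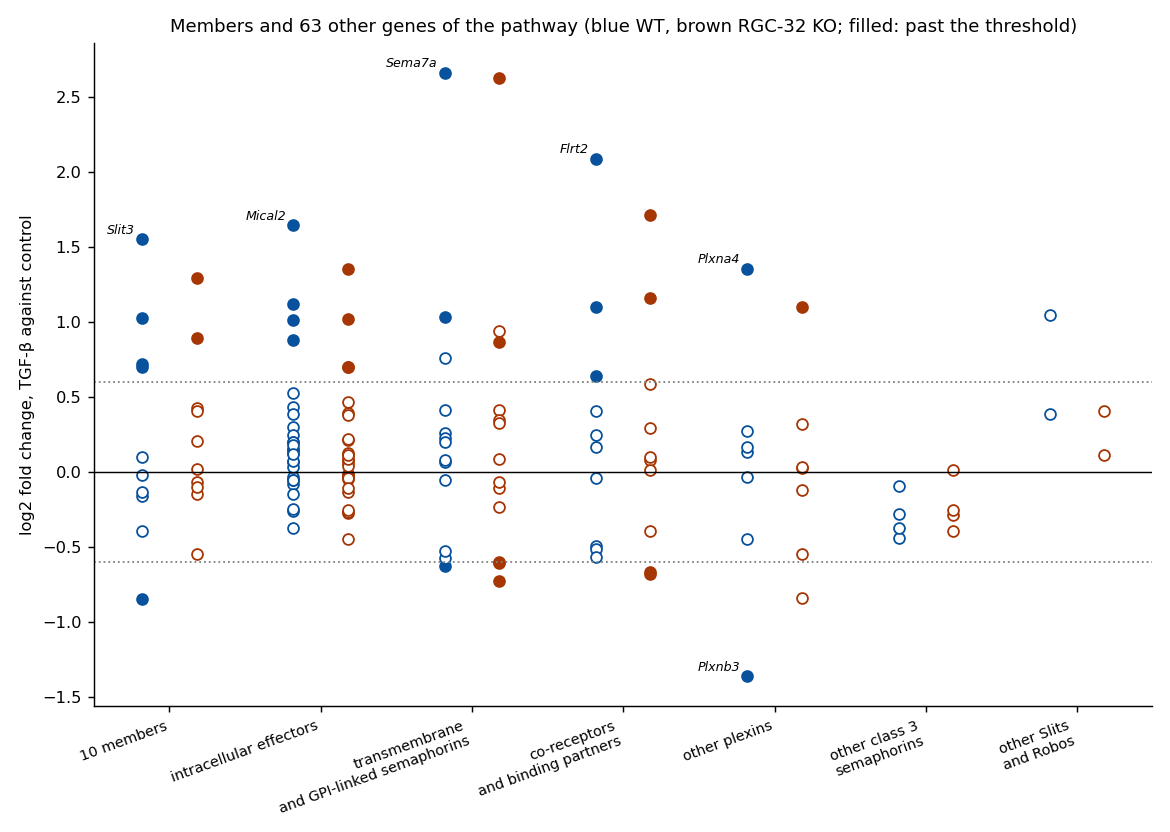
Log2 fold change with TGF-β (vertical axis) of the 10 members and 63 other genes by list, with WT in blue and RGC-32 KO in brown; filled points are past the threshold, and dotted lines mark a log2 fold change of 0.6. Sema7a, Flrt2 and Mical2 lie above the members in WT, and the other class 3 semaphorins and the other Slits and Robos have no filled point.

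Other cell types in a culture could hold these genes, and in bulk RNA fewer cells of a type and less RNA per cell cannot be told apart. The summed CPM of 12 meningeal fibroblast markers, all in the count table, was mostly Col1a1, Col1a2 and Col3a1, and it moved with Slit2, Slit3, Robo1 and Plxna1. It was 4722 to 6056 in the WT controls, 9234 to 10399 in the treated WT libraries, 3930 to 4088 in the RGC-32 KO controls and 6929 to 7096 in the treated RGC-32 KO libraries, so it was also lower in RGC-32 KO than in WT, as were most of the 10 genes. The list was uneven. With TGF-β, 4 of the 11 markers tested rose and 2 fell past the threshold in WT, and 4 rose and 0 fell in RGC-32 KO. The collagen genes Col1a1 and Col1a2 rose, with Col1a1 at 1.31 (SE 0.12) and 1.20 (SE 0.12) on the log2 scale. So did Pdgfrb and Crabp2, while Col3a1, at 0.47 and 0.44, was not past the threshold. Dcn was at -0.62 (SE 0.10) and -0.36 (SE 0.10). Ogn, Foxc1, Foxd1, Zic1 and Lum also had lower values with TGF-β in both genotypes, and Slc6a13 had 1.28 CPM or less in every library. Between genotypes no marker of the list was past the threshold. In untreated cells all the tested markers had lower values in RGC-32 KO. In treated cells Dcn, at 0.03, and Zic1, at 0.11, had higher values in RGC-32 KO. The rest had lower ones, from -0.04 for Ogn to -0.58 for Col1a2. The second WT control library held more Slit2, Slit3, Sema3a, Robo1 and Robo2 than the first, and less Sema3c, Plxna1, Nrp1 and Nrp2. Of the fibroblast markers, it held more Col3a1, at 1234 against 697 CPM, and more Ogn, at 440 against 340 CPM. It also held more Dcn, Lum, Col1a1, Col1a2, Pdgfrb, Foxc1, Foxd1 and Zic1. It held less Crabp2, at 4.12 against 14.2 CPM, and less Slc6a13, at 0.298 against 0.322 CPM. The sum of the 4 pericyte and smooth muscle markers in the table, mostly Acta2, was 2301 to 2661, 5012 to 5673, 2068 to 2203 and 4926 to 5476 in the same order. Acta2 and Myh11 rose past the threshold in both genotypes, while Vtn was at -0.64 in WT and fell past it in RGC-32 KO, at -1.39. Rgs5 was at 0.17 and 0.03. The sum of 10 astrocyte markers was instead lower with TGF-β and higher in RGC-32 KO than in WT. It stood at 4620 to 4847, 3585 to 3705, 5342 to 6005 and 4384 to 4716 again in that order. Of these 10, 2 fell past the threshold in each genotype, Slc1a2 and Glul, and 0 rose. Gja1 was at 0.35 in WT and 0.33 in RGC-32 KO on the log2 scale, and S100b at -0.14 and 0.08. The ependymal sum, mostly Foxj1, and the endothelial sum, mostly Cdh5, were also lower with TGF-β. They stood at 355 to 408 and 69.4 to 96.3 in the WT controls and 229 to 253 and 49.0 to 55.2 in the treated WT libraries. Flt1, on the endothelial list, rose instead, at 1.13 in WT and 0.63 in RGC-32 KO on the log2 scale. The sum of the 8 oligodendrocyte lineage markers in the table was higher with TGF-β. It stood at 379 to 391, 544 to 625, about 400 in both and 466 to 586 in that order. The sum of the 5 neuronal markers, mostly Map2, was 305 to 316, 378 to 397, 280 to 338 and 355 to 385. Of these 5, only Tubb3 was past the threshold, and it rose in both genotypes. Stmn2 was at -0.16 in WT and -0.0048 in RGC-32 KO on the log2 scale, and Syt1 at 0.11 and -0.32. Cspg4, which marks oligodendrocyte precursors and also pericytes, went from 25.4 and 38.5 CPM in the WT controls to 257 and 302, while Sox10 had 1.01 CPM or less in every library. Pdgfra and Cnp fell past the threshold, at -0.98 and -0.76 in WT and -0.71 and -0.76 in RGC-32 KO on the log2 scale. Of the 8 oligodendrocyte lineage markers, 1 rose and 2 fell past it in WT, and 2 rose and 2 fell in RGC-32 KO. The microglial sum overlapped between the WT groups, and was lower with TGF-β in RGC-32 KO, at 1050 to 1171 against 1233 to 1352. The part of these cells in the values of the 10 genes was not tested.

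**Figure D5:**
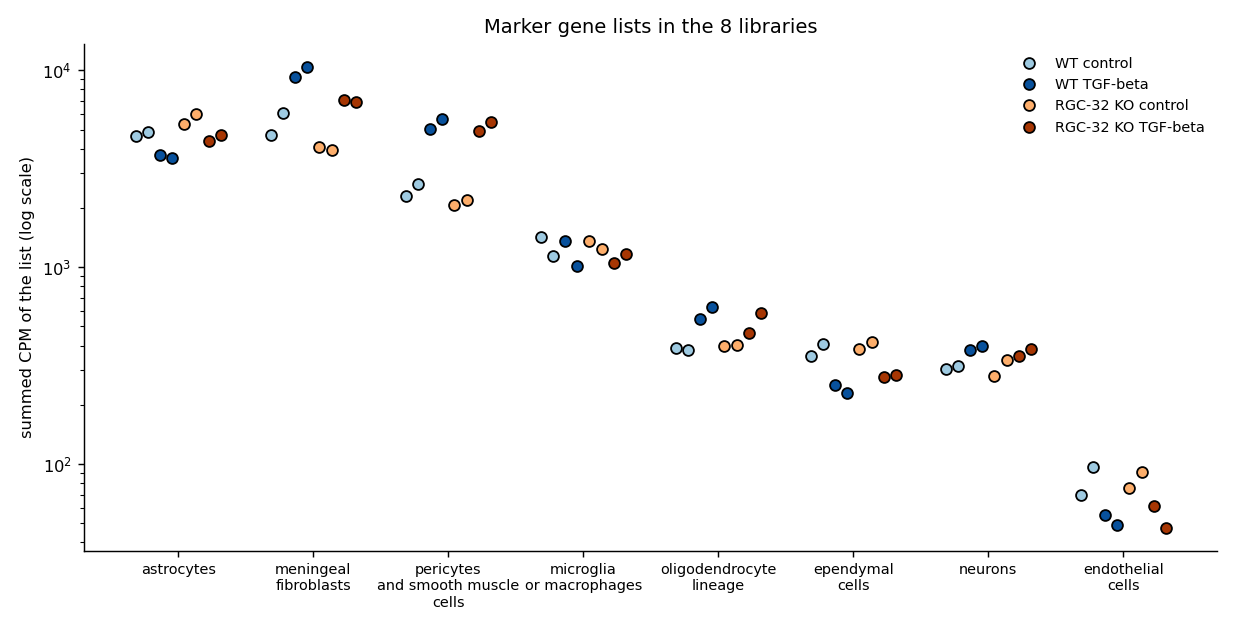
Summed CPM (vertical axis, log scale) of 8 marker lists in the 8 libraries, with 1 point a library coloured by group. The meningeal fibroblast, pericyte and smooth muscle, oligodendrocyte lineage and neuronal sums are higher with TGF-β in both genotypes. The meningeal fibroblast sum is mostly collagen genes, the pericyte and smooth muscle sum mostly Acta2 and the neuronal sum mostly Map2. The rise of the oligodendrocyte lineage sum is mostly that of Cspg4. The astrocyte, ependymal and endothelial sums are lower with TGF-β, and the astrocyte sum is higher in RGC-32 KO than in WT.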

How the data were processed

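RNA of 8 libraries of primary mouse astrocytes was sequenced without strand information. Alignment by the authors used STAR, run within VIPER, and the submitters' processing notes name the build mm10, Cufflinks and DESeq. The counting program is not given in the sources used here. The authors deposited raw whole-number counts for 13937 gene symbols and FPKM values from Cufflinks for 18644 genes. They also deposited DESeq2 comparisons of TGF-β against control, which were not used. Counts were tested in R 4.3.3 with edgeR 4.0.16 (TMM, filterByExpr, 1 quasi-likelihood model over 4 groups without a block, Benjamini-Hochberg adjustment over 13509 genes, two-sided), and the procedure was tested on simulated data. SE is derived from the test statistic. limma 3.58.1 and DESeq2 1.42.0 served as alternatives. Groups, comparisons and replicate numbers came from the deposited labels. Named were all 10 members, other pathway genes past the threshold in either genotype or, in a list without any, the one with the largest WT value, and the 3 genes nearest to Slit2 and Plxna1. Marker genes named singly were chosen after their values were seen. The members and gene lists were chosen with earlier results of these data known. Coordinates and transcripts are those of GENCODE M21, and sequences of promoters and miRNAs those of RefSeq.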

Additional observations from a re-analysis of the deposited data

Results flagged for a closer look

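The libraries of Plxnb1 lay in opposite orders in the 2 genotypes, though neither response to TGF-β was past the threshold (WT edgeR adjusted p = 0.329, RGC-32 KO edgeR adjusted p = 0.169). In WT both TGF-β libraries (283 and 278 CPM) lay above both controls (262 and 262 CPM), and in RGC-32 KO both TGF-β libraries (257 and 269 CPM) lay below both controls (272 and 310.2 CPM). The difference between the responses was -0.24 on the log2 scale (edgeR adjusted p = 1.00, under 0.05 before adjustment), and on the Cufflinks scale the WT response was -0.030 instead of 0.10. Without the second RGC-32 KO control library the response in RGC-32 KO was -0.048 instead of -0.15 and the difference -0.15.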

How the results depend on the processing

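With 2 libraries a group, the spread is estimated over all 4 groups, and a group left with 1 library is assumed to vary like the others. Of 1030 single values of the members under the alternatives, 992 kept their direction and side of the threshold. No value past the threshold changed sign. In WT, Cufflinks values left 2 members past the threshold with a pseudocount of 1 and 3 with 0.1, against 5, as Slit2 was at 0.55 and 0.57, Plxna1 at 0.50 and 0.52 and Sema3a at -0.59 with a pseudocount of 1. With no fold limit, 5 members passed in RGC-32 KO (main 2), 1 between genotypes with TGF-β (main 0), and 26 and 23 of the other pathway genes in WT and RGC-32 KO (main 12 and 14). Between genotypes with TGF-β, 1 member (Slit2) passed with DESeq2 on all 8 libraries and 2 with DESeq2 on 4. Over all genes, no fold limit gave 4450 in WT and 3835 in RGC-32 KO against 1806 and 1559, and Cufflinks values with a pseudocount of 1 gave 1105 and 1040. Leaving out the second WT TGF-β library gave 1200 in WT. Between genotypes without TGF-β the count was 13 with DESeq2 on all 8 or on 4 libraries, 2 with edgeR on 4 and 0 to 3 without 1 library, against 5. With TGF-β it was 34 and 41 with DESeq2, 3 with limma-voom and 0 to 6 without 1 library, against 6. Cufflinks values with a pseudocount of 0.1 shifted the median log2 fold change of all genes to -0.13 in each genotype, with 752 higher and 1250 lower in WT and 691 higher and 1231 lower in RGC-32 KO. Those with a pseudocount of 1 gave 519 and 586 in WT and 462 and 578 in RGC-32 KO.

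Values under the threshold that changed sign were these. Plxnb1 in WT was at -0.030 and -0.032 with Cufflinks values at pseudocounts of 1 and 0.1. Sema3c in RGC-32 KO was at -0.0023 with at least 10 counts in every library, -0.067 with upper quartile normalization, -0.13 and -0.14 with Cufflinks values, and between -0.086 and 0.11 without 1 library. Leaving out 1 library in turn, Nrp1 in WT ran from -0.13 to 0.083. Nrp2 ran from -0.34 to 0.083 in WT, -0.29 to 0.049 in RGC-32 KO, -0.40 to 0.0027 between genotypes without TGF-β and -0.18 to 0.22 in the interaction. Robo2 ran from -0.33 to 0.016 between genotypes with TGF-β and from -0.21 to 0.067 in RGC-32 KO. Slit3 ran from -0.74 to 0.068 between genotypes without TGF-β and from -0.72 to 0.089 in the interaction. The cause was not tested.

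The labels' replicate numbers were tried as a block. Same-numbered control and TGF-β libraries deviated in opposite directions (correlation across genes -0.34 in WT and -0.35 in RGC-32 KO), while same-numbered WT and RGC-32 KO libraries deviated together (0.49 without TGF-β and 0.25 with it), and with 2 libraries a group the numbers are not taken as pairs. With the replicate block, 1616 genes passed in WT, 1369 in RGC-32 KO, 2 between genotypes without TGF-β and 3 with it, and the members past the threshold were 5, 2, 0 and 0. This block keeps same-numbered WT and RGC-32 KO libraries together, and so does a block with the numbers of the TGF-β libraries crossed. The latter, chosen after seeing the data, gave 2105, 1852, 10 and 36 genes, and 1 member, Slit2, between genotypes with TGF-β.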
